A study of Bos taurus with 4 samples.

Results

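HOX cluster genes were examined in bovine intestine, muscle and intestinal organoids. Members were chosen by name alone, as every row of the deposited counts whose symbol is HOX followed by a cluster letter (A, B, C or D) and a number, and 39 of the 29792 rows matched. The HOXA cluster held 11 of them, HOXB 10, HOXC 9 and HOXD 9. The 4 libraries came from Hanwoo cows, a Korean breed of cattle, and were made from intestine tissue, muscle tissue, intestinal organoids at passage 5 (P5) and intestinal organoids at passage 10 (P10). Organoids, which are 3D cultures of epithelium, were grown from crypts of the jejunum of healthy animals over 24 months old, in Matrigel with IntestiCult medium, and the labels name no further treatment. The labels do not say which muscle was sampled, which layers of the intestine were included, how many animals contributed or whether the tissues and the organoids came from the same animal. Each group has 1 library, so differences between groups lack replicates and were not tested.

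HOX genes encode transcription factors that bind DNA through a homeodomain. They lie in 4 clusters, and members with the same number in different clusters (paralogues) descend from a common ancestral gene. In the embryo, genes with low numbers are switched on early and towards the head, and genes with high numbers later and towards the tail, so the set of HOX genes that a cell transcribes records the position along the body axis from which it came. In the gut, both the epithelium and the surrounding mesenchyme transcribe HOX genes, and in the limb the high-numbered HOXA and HOXD genes pattern the parts far from the trunk. HOX proteins bind DNA together with the cofactors of the PBX, MEIS and PKNOX families, and the CDX factors of the intestinal epithelium regulate HOX genes in the embryo.

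The deposited counts summed to between 12917720 reads in muscle and 17776273 in intestine. The libraries sequence the 3′ ends of polyadenylated RNA, so reads were not divided by gene length. A read count is therefore mainly set beside that of the same gene in another library. Where different genes or clusters are set side by side within a library, the values are shares or counts of reads and not levels of expression. Values are given as reads and as CPM (reads of a gene per unit of library depth, so that libraries can be set side by side), with an exact Poisson 95% interval that covers counting error only. A member with 3 reads or fewer was treated as not detected, which is 0.169 CPM in the intestine and P10 libraries, 0.221 CPM at P5 and 0.232 CPM in muscle. RN18S1, an 18S ribosomal RNA, took 23.6% of the muscle reads and between 0.264% and 4.81% of the reads of the other libraries. Markers of the labelled tissues were found where the labels place them. The 13 skeletal muscle markers in the files summed to 45440 CPM in muscle and to between 3.66 and 7.28 CPM in the other libraries, and the 10 epithelial markers summed to 2033 CPM in intestine, 10680 at P5, 9814 at P10 and 23.2 in muscle. Intestine also held RNA of other cells, with 1275 CPM summed over 10 stromal markers, 2539 over 8 smooth muscle markers and 6245 over 10 immune markers.

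Of the 39 HOX genes, 26 were detected in at least 1 library and 13 in none. Intestine had 19 detected members, muscle 19, P5 organoids 14 and P10 organoids 13. In the same order, the shares of all rows detected were 60.3%, 52.3%, 56.5% and 53.5%. Only HOXA2 to HOXA7 and HOXC6 were detected in all 4 libraries. The shares of all rows detected in all 4 libraries, in at least 1 or in none were not computed. Of the 29792 rows, 22200 had a read in at least 1 library. The members at 3 reads or fewer throughout included HOXB1, HOXB8, HOXB9, HOXB13, HOXC5, HOXC10 to HOXC13 and HOXD11 to HOXD13, and 9 of the 13 had no read in any library. In the gut libraries the highest number detected was 9, reached by HOXA9 and HOXC9, whereas muscle reached HOXA13 and HOXD10.

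**Figure D1:**
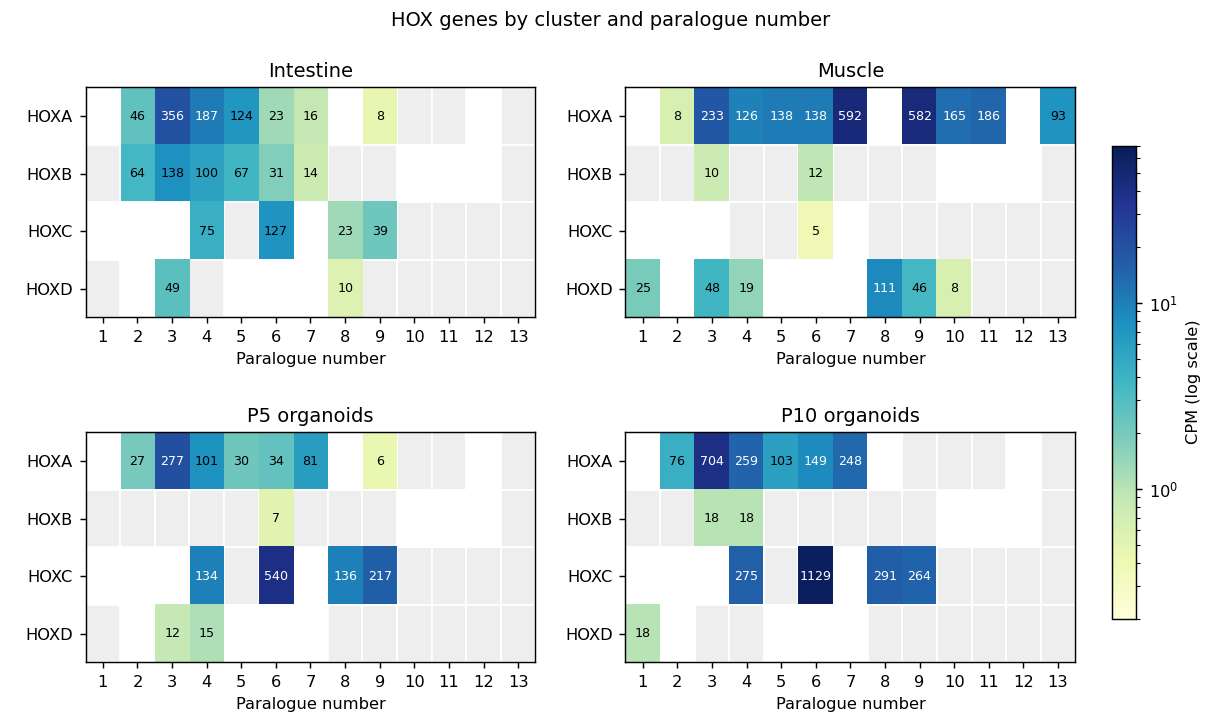
Reads of each HOX gene, with clusters as rows and paralogue numbers as columns, in 1 panel for each of the 4 libraries. Colour gives CPM on a log scale, the printed number gives reads, grey marks genes with 3 reads or fewer and white marks numbers with no gene in the files or not shown. HOXB is coloured from HOXB2 to HOXB7 in intestine and nearly empty in both organoid libraries, and HOXA10, HOXA11 and HOXA13 are coloured only in muscle.

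Summed over the 39 members, HOX reads amounted to 84.2 CPM in intestine (80.0 to 88.6), 119.7 CPM at P5 (114 to 126), 200.6 CPM at P10 (194 to 207) and 197.5 CPM in muscle (190 to 205). The clusters contributed very differently to these sums. In intestine, HOXA supplied 50.8% of the HOX reads, HOXB 27.7%, HOXC 17.6% and HOXD 3.94%. In P5 organoids, HOXC supplied 63.3% (exact binomial 95% interval 60.9 to 65.6) and HOXA 34.2%, while HOXD supplied 1.90% and HOXB 0.676% (0.338 to 1.21). In P10 organoids HOXC was also first, at 55.1%, with HOXA at 43.4%, HOXB at 1.01% and HOXD at 0.534%. Muscle had 88.6% of its HOX reads on HOXA and 10.1% on HOXD, with 1.02% on HOXB and 0.274% on HOXC. These shares are taken within a library and do not depend on how libraries are scaled to each other. Reads counted on both genes of an overlapping pair would change them, and HOXC genes are in no such pair.

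**Figure D2:**
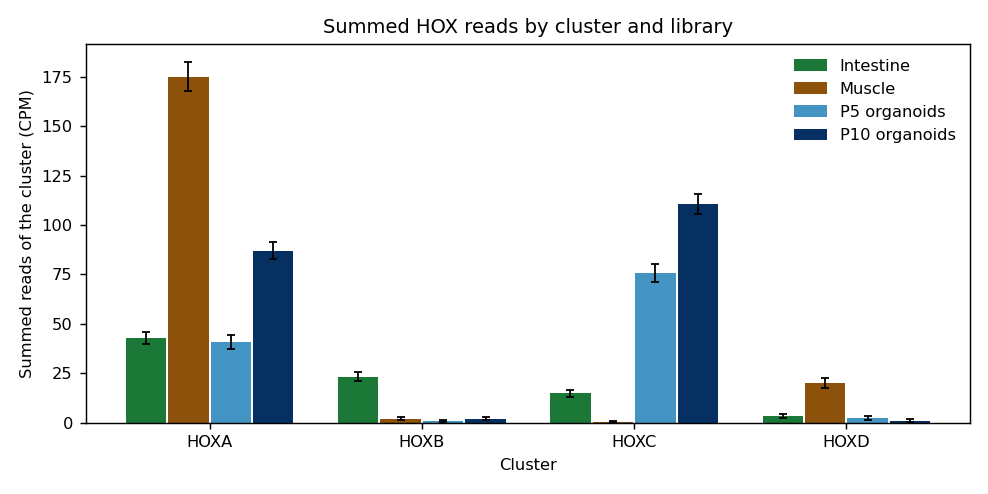
Summed reads of each HOX cluster in CPM, by library. Bars give the sum and lines its exact Poisson 95% interval, which covers counting error only. HOXC reached 75.7 CPM in P5 and 110 CPM in P10 organoids against 14.9 CPM in intestine, whereas HOXB stood at 23.3 CPM in intestine and at 2.03 CPM or less in the other libraries.

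A gene was counted as at least 2-fold apart when the library with more had over 3 reads and the CPM ratio was 2 or more with the lower count set to no less than 3 reads. Between P5 organoids and intestine, 20 members could be compared, of which 6 were at least 2-fold higher and 9 at least 2-fold lower in P5 organoids. Over all comparable rows these shares were 22.8% higher and 23.7% lower. Between P10 organoids and intestine, 7 of 20 were higher and 9 lower, against 26.2% and 28.2% of all rows. P10 organoids had 7 of 17 members higher and 4 lower than P5 organoids, where 17.2% and 20.8% of all rows were called. Muscle had 11 of 26 members higher and 10 lower than intestine, where 12.5% of all rows were higher and 53.4% lower. The split over all rows depended on the scaling: quantile normalisation, which the methods of the study name, gave 5334 rows higher and 3630 lower in P5 organoids than in intestine and 5476 higher and 3845 lower in P10 organoids, in place of 4407 and 4590 and of 4978 and 5354. Between muscle and intestine, TMM normalisation gave 4582 higher and 5983 lower in place of 2367 and 10127, with 13 members higher and 9 lower. The median member ratio was 0.737 between P5 organoids and intestine, beside 1.08 over all rows, and hid opposite directions of the clusters. Its value by cluster was 0.980 for HOXA, 0.0599 for HOXB, 6.42 for HOXC and 0.392 for HOXD.

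HOXC genes had higher levels in organoids than in intestine. HOXC4, HOXC6, HOXC8 and HOXC9 were detected in intestine and in both organoid libraries, and each was at least 2-fold higher in both organoid libraries than in intestine. HOXC6, a thoracic-level gene in the embryo, had 127 reads in intestine, 540 at P5, 1129 at P10 and 5 in muscle. Its CPM in P5 organoids was 5.56 times that in intestine (95% counting interval 4.57 to 6.80), and in P10 organoids 8.91 times (7.41 to 10.8). HOXC8 had 23 reads in intestine, 136 at P5, 291 at P10 and none in muscle, a ratio to intestine of 7.73 (4.94 to 12.6) at P5 and 12.7 (8.29 to 20.3) at P10. HOXC9 had 39, 217, 264 and 0 reads in the same order, and its ratio to intestine was 7.27 (5.15 to 10.5) at P5 and 6.79 (4.84 to 9.76) at P10. HOXC4 had 75, 134, 275 and 0 reads, with ratios of 2.34 (1.75 to 3.14) and 3.68 (2.84 to 4.81). All of these intervals lie above 1. From P5 to P10 organoids, the CPM ratio was 1.57 for HOXC4, 1.60 for HOXC6 and 1.64 for HOXC8, each with an interval above 1, and 0.933 (0.777 to 1.12) for HOXC9, so that no HOXC gene was 2-fold apart between the passages. HOXC5, which lies between HOXC4 and HOXC6, had no read in any gut library.

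Epithelial markers were also higher in both organoid libraries. The 10 epithelial markers had a median CPM ratio to intestine of 5.66 in P5 organoids, with values from 2.08 for VIL1 to 65 for CDX2 (from 4 reads to 199), and of 4.80 in P10 organoids, with values from 1.20 for VIL1 to 40.5 for KRT18. The HOXC ratios fell within these ranges in both libraries, as did those of HOXA7 (6.62 at P5 and 15.5 at P10). The ranges are wide, and a ratio within them does not show that a gene follows the epithelial markers. In bulk RNA, fewer cells of a type and less RNA per cell cannot be told apart, and the part of cell composition in the HOX values was not tested.

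HOXB genes showed the opposite difference. In intestine, 6 neighbouring numbers were detected, with 64 reads on HOXB2, 138 on HOXB3, 100 on HOXB4, 67 on HOXB5, 31 on HOXB6 and 14 on HOXB7. P5 organoids had 2 reads on HOXB3, 2 on HOXB4, 7 on HOXB6 and none on the other HOXB genes. P10 organoids had 18 reads on HOXB3, 18 on HOXB4 and none on the rest. All 6 were thus at least 2-fold lower than in intestine in both organoid libraries, against the background shares given above. HOXB5, which acts in the development of enteric neurons and lung mesenchyme, was at least 17.1-fold lower in P5 and at least 22.3-fold lower in P10 organoids. HOXB2, a hindbrain gene in the embryo, was at least 16.3-fold and at least 21.3-fold lower. The ratio of HOXB3 to intestine was 0.0189 (0.00227 to 0.0697) at P5 and 0.131 (0.0753 to 0.215) at P10, and that of HOXB4 was 0.0261 (0.00312 to 0.0969) and 0.181 (0.103 to 0.300). HOXB6 had a ratio of 0.295 (0.110 to 0.683) at P5 and was at least 10.3-fold lower at P10. Summed, the cluster stood at 23.3 CPM in intestine (21.1 to 25.6), 0.809 CPM in P5 organoids (0.404 to 1.45), 2.03 CPM in P10 organoids (1.42 to 2.81) and 2.01 CPM in muscle (1.32 to 2.95).

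Markers of cells other than epithelium were lower in the same libraries as HOXB. The 10 stromal markers summed to 1275 CPM in intestine, 6.84 CPM in P5 and 0.282 CPM in P10 organoids, where 4 and 9 of the 10 had no read, among them LUM, DCN, COL3A1 and THY1 in both. All 10 were at least 2-fold lower in both organoid libraries than in intestine. The 8 smooth muscle markers summed to 2539, 29.0 and 62.2 CPM, with ACTG2 and DES at 0 in both organoid libraries. Immune markers summed to 6245, 6.69 and 10.2 CPM, and endothelial markers to 59.9, 4.85 and 3.67 CPM. Neuron and glia markers summed to 39.4, 8.90 and 34.1 CPM, and UCHL1 supplied 559 of the 604 reads of this list in P10 organoids. Muscle, in which stromal markers summed to 1695 CPM, had HOXB reads on HOXB3 (10) and HOXB6 (12) and no more than 2 on any other HOXB gene. Which cells of the intestine carried the HOXB reads was not tested.

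The low-numbered HOXA genes were present in every library. HOXA3, which patterns pharyngeal arches in the embryo, had 356 reads in intestine, 277 at P5, 704 at P10 and 233 in muscle. Its CPM did not differ beyond counting error between P5 organoids and intestine (ratio 1.02, interval 0.866 to 1.19) and was 1.98 times higher in P10 organoids (1.74 to 2.26), just under the 2-fold limit. HOXA4 had 187, 101, 259 and 126 reads in the same order of libraries. HOXA2 had 46, 27, 76 and 8 reads, and its ratio to intestine was 0.767 (0.459 to 1.26) at P5 and 1.66 (1.13 to 2.44) at P10. HOXA5, a gene of lung and gut mesenchyme in the mouse embryo, had 124, 30, 103 and 138 reads. It was the only HOXA gene at least 2-fold lower in P5 organoids than in intestine (ratio 0.316, interval 0.205 to 0.474), and in P10 organoids its ratio was 0.833 (0.635 to 1.09).

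HOXA6 and HOXA7 had more reads relative to intestine in organoids. HOXA7 had 16 reads in intestine, 81 at P5, 248 at P10 and 592 in muscle. The ratio to intestine was 6.62 (3.84 to 12.1) at P5 and 15.5 (9.38 to 27.6) at P10. HOXA6 had 23, 34, 149 and 138 reads, with ratios of 1.93 (1.11 to 3.44) at P5 and 6.50 (4.17 to 10.6) at P10. Both genes were therefore lowest in intestine, and HOXA6 did not reach 2-fold at P5.

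Between the passages, 6 of the 7 comparable HOXA genes had a higher CPM at P10. Over all comparable rows this held for 9375 of 17798, with each count set to at least 3 reads. HOXA3 to HOXA6 overlap in the gene table described below, so their ratios may not be independent. The ratio of P10 to P5 organoids was 2.16 (1.38 to 3.49) for HOXA2, 1.95 (1.69 to 2.25) for HOXA3, 1.97 (1.56 to 2.50) for HOXA4, 2.63 (1.74 to 4.10) for HOXA5, 3.36 (2.30 to 5.03) for HOXA6 and 2.35 (1.82 to 3.06) for HOXA7. All 6 intervals lie above 1. The exception was HOXA9, with 6 reads at P5 and 2 at P10, a ratio of 0.256 whose interval of 0.0252 to 1.43 includes 1. Summed over the cluster, the passages were 2.13-fold apart (1.93 to 2.35), and HOXC was 1.46-fold apart (1.35 to 1.58). With 1 library for each passage, passage and culture cannot be told apart. With at least 10 reads required, 4 members in place of 7 were higher in P10 than in P5 organoids and 0 in place of 4 lower, since the counts of the other members were small.

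**Figure D3:**
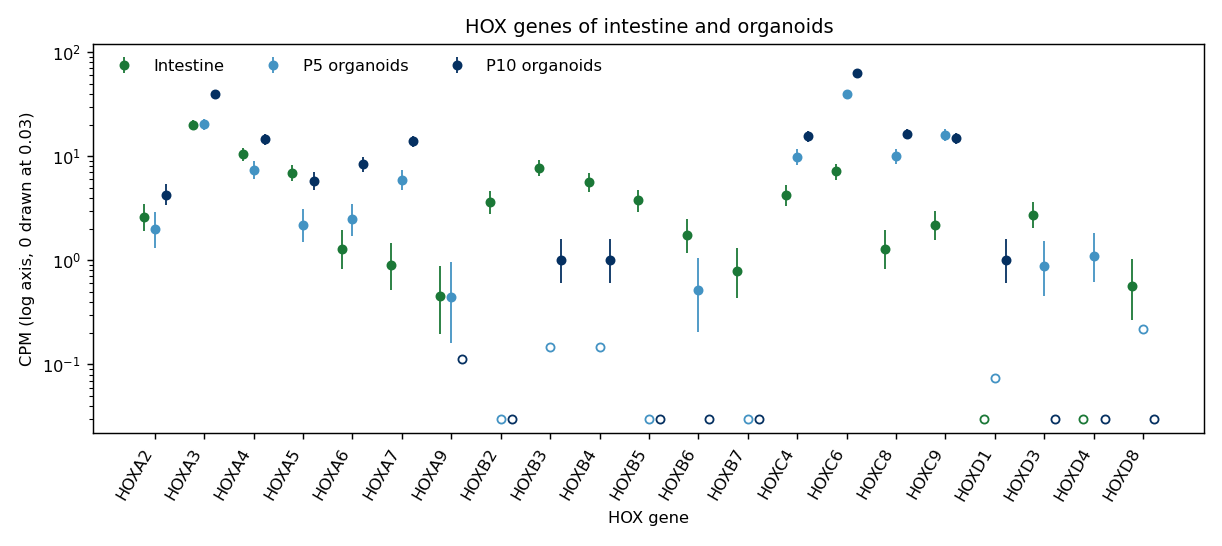
CPM of the HOX genes detected in intestine or organoids, on a log axis with 0 drawn at 0.03. Filled points are libraries with over 3 reads and lines their exact Poisson 95% intervals, and open points are libraries with 3 reads or fewer. Organoid points lie above intestine for HOXA7 and the 4 HOXC genes, and at 0 for HOXB2, HOXB5 and HOXB7.

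High-numbered HOXA genes were counted mainly in muscle. HOXA9 had 582 reads in muscle, 8 in intestine, 6 in P5 and 2 in P10 organoids, and its ratio of muscle to intestine was 100 (50.5 to 233). HOXA10, HOXA11 and HOXA13, which pattern the limb segments and the urogenital tract, had 165, 186 and 93 reads in muscle and none in the 3 gut libraries. They were at least 75.7-fold, 85.3-fold and 42.7-fold higher in muscle than in intestine. HOXA7 was 50.9-fold higher (31.1 to 89.7) and HOXA6 8.26-fold (5.28 to 13.5). HOXA3 and HOXA4 had muscle to intestine ratios of 0.901 (0.760 to 1.07) and 0.927 (0.734 to 1.17), which lay above 1 with TMM normalisation (1.82 and 1.87). HOXA5 had a ratio of 1.53 (1.19 to 1.97), and HOXA2 was lower in muscle, at 0.239 (0.0976 to 0.512). From HOXA6 onwards, every detected HOXA gene was at least 2-fold higher in muscle than in intestine. Against P10 organoids this did not hold for HOXA6, with 10.7 CPM in muscle and 8.40 CPM at P10. The summed HOXA level of muscle was 175 CPM, 229 CPM without RN18S1 in the library total and 319 CPM with TMM normalisation, under which intestine had 38.5 CPM. Between muscle and intestine the median ratio over all rows was 0.454, and 0.917 with TMM normalisation.

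HOXD reads were few outside muscle. In muscle, HOXD1 had 25 reads, HOXD3 48, HOXD4 19, HOXD8 111, HOXD9 46 and HOXD10 8, and HOXD11 to HOXD13 had none. HOXD8 was 15.3-fold higher in muscle than in intestine (8.0 to 32.7), where it had 10 reads, with 3 at P5 and 0 at P10. HOXD9 and HOXD10 had no read in a gut library, and HOXD9 was at least 21.1-fold higher. HOXD3 had 49 reads in intestine, close to muscle on the CPM scale (ratio of muscle to intestine 1.35, interval 0.886 to 2.05), 12 in P5 organoids and none in P10 organoids. Its ratio to intestine was 0.320 (0.155 to 0.611) at P5, and it was at least 16.3-fold lower at P10. The organoid libraries differed from each other in the low-numbered HOXD genes. HOXD4 had 15 reads at P5 and none at P10 or in intestine, whereas HOXD1 had 18 reads at P10, 1 at P5 and none in intestine. HOXD1 was at least 6.02-fold higher at P10 than in intestine. Counts of this size rest on few reads.

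The direction of such small counts could depend on the normalisation. HOXA9, with 8 reads in intestine and 2 in P10 organoids, was lower in P10 organoids on the CPM scale and higher after quantile normalisation (ratio of 1.35). HOXD8, with 10 and 0 reads, had a ratio of 1.45 after quantile normalisation. That ratio was computed with the 0 reads at P10 set to the value of 3 reads (6.25), so it shows no change of direction. Under that method a single read was worth 0.25 in the intestine library, 0.750 at P5 and 3.25 at P10 and in muscle. With it, 5 members in place of 9 were at least 2-fold lower in P5 organoids than in intestine.

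Grouped by number, reads fell on different paralogues in different libraries. Of the number 9 genes, muscle had reads on HOXA9 (582) and HOXD9 (46) and none on HOXC9, P5 organoids had 217 on HOXC9 and 6 on HOXA9, and HOXB9 had no read in any library. Of the number 4 genes, intestine had 187 reads on HOXA4, 100 on HOXB4, 75 on HOXC4 and none on HOXD4, while P10 organoids had 259, 18, 275 and 0. Number 6 was counted on HOXC6 with 1129 reads, HOXA6 with 149 and HOXB6 with 0 in P10 organoids, and on HOXA6 with 138, HOXB6 with 12 and HOXC6 with 5 in muscle. Number 8 was counted on HOXC8 in organoids and on HOXD8 in muscle, which had 111 reads of HOXD8 and none of HOXC8. Anterior genes (numbers 1 to 3) supplied 43.6% of the HOX reads in intestine, 19.6% at P5, 23.0% at P10 and 12.7% in muscle. Central genes (4 to 8) supplied 53.2%, 66.5%, 69.5% and 45%, and posterior genes (9 to 13) 3.14%, 13.9%, 7.51% and 42.3%. Nearly all posterior reads of the organoids were HOXC9, and those of muscle were HOXA9 to HOXA13 with HOXD9 and HOXD10.

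Neighbouring HOX genes overlap, which limits what a row counts. All 39 symbols matched the RefSeq gene table of the assembly ARS-UCD2.0. The assembly behind the deposited counts is not given in the sources used here, so no coordinates are given. In that table, 14 members lie in 9 overlapping pairs. HOXB4, HOXB5 and HOXB6 lie inside HOXB3, HOXA4 lies inside HOXA3 and HOXA6 inside HOXA5. HOXA5 also overlaps HOXA3 in part, and HOXD4 overlaps HOXD3 in part. The differences between passages of HOXA3 to HOXA6, and those of HOXD3 and HOXD4, may therefore not be independent of each other. HOXB3 and HOXB4 had equal counts in both organoid libraries (2 and 2, 18 and 18) but not in intestine (138 and 100), and HOXA5 and HOXA6 had equal counts in muscle (138 and 138). Whether the same reads were counted on both genes of such a pair was not tested, and cluster sums could then hold a read more than 1 time. HOXC genes are in no overlapping pair.

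Of 9 other rows that the table places between the members, 6 were detected in a library. These rows were looked up after the values of the members were known. LOC112446395 and LOC104972110, long noncoding RNAs between HOXA13 and HOXA11, had 58 and 62 reads in muscle and none elsewhere, like the HOX genes on either side. LOC112446396, a noncoding RNA that overlaps HOXA5, HOXA6 and HOXA7, had 147 reads in intestine, 36 at P5, 131 at P10 and 276 in muscle. LOC100848443, next to HOXA2, had 195, 35, 29 and 3 reads, and thus did not share the higher P10 count of HOXA2. LOC100848766, which overlaps HOXB3, had 12 reads in intestine, 7 in muscle and none in organoids. PRAC2, between HOXB13 and HOXB9, had 6 reads in P5 organoids and none elsewhere.

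Cofactors of HOX proteins differed by family. Among the 9 genes of the PBX, MEIS and PKNOX families, 1 was at least 2-fold higher and 4 at least 2-fold lower in P5 organoids than in intestine, and the same numbers held at P10. Of all rows, 22.8% were higher and 23.7% lower at P5, and 26.2% and 28.2% at P10. MEIS2 had 2015 reads in intestine and 27 in muscle, against 21 at P5 and 9 at P10, a ratio to intestine of 0.0136 (0.00841 to 0.0209) at P5 and 0.00448 (0.00205 to 0.00852) at P10. MEIS1 had 362, 51, 15 and 1 reads, with ratios of 0.0542 (0.03 to 0.0905) at P5 and 0.00277 at P10 (6.99e-05 to 0.0155). MEIS3 and PKNOX2, with 14 and 31 reads in intestine, had no more than 3 in either organoid library. PBX3 and PBX4 stayed detected in organoids. PBX3 had 1695 reads in intestine, 748 in P5 and 2356 in P10 organoids, and PBX4 had 94, 270 and 409 with none in muscle. The PBX4 ratio to intestine was 3.75 (2.96 to 4.80) at P5 and 4.36 (3.48 to 5.52) at P10. PKNOX1, the other PKNOX gene, had 274, 194 and 466 reads in intestine, P5 and P10 organoids. In the gut, the MEIS genes were low in the same libraries as the stromal, smooth muscle, immune and endothelial markers given above. In muscle, MEIS2 was low while stromal markers were not. Which cells carried the MEIS reads was not tested.

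**Figure D4:**
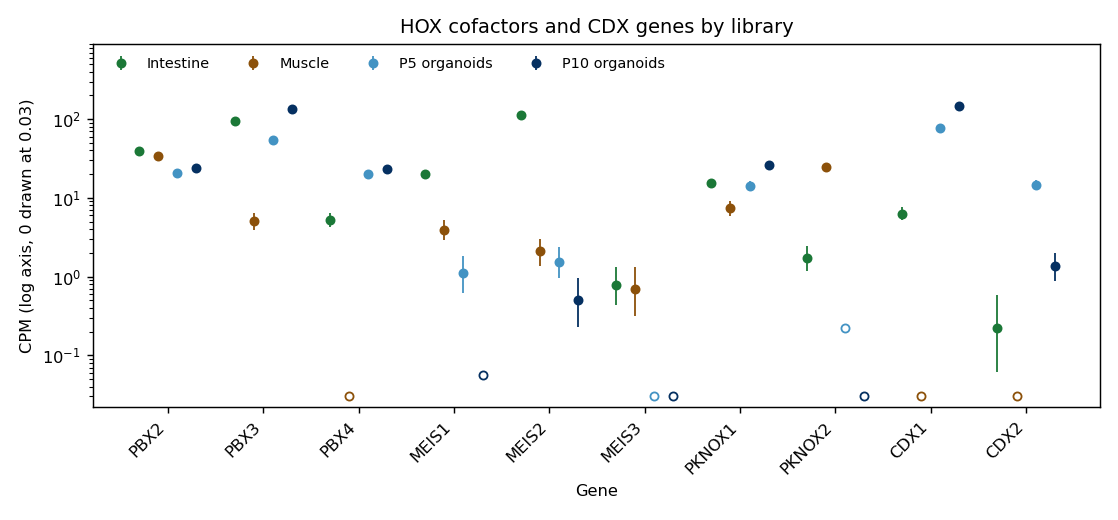
CPM of 8 HOX cofactors and of CDX1 and CDX2 in the 4 libraries, on a log axis with 0 drawn at 0.03. Filled points have over 3 reads with their exact Poisson 95% intervals, and open points 3 reads or fewer. MEIS1 and MEIS2 are lower in both organoid libraries than in intestine, and CDX1 is higher.

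Of the 6 ParaHox genes, which are relatives of the HOX clusters, CDX1 and CDX2 were detected, in intestine and organoids only. CDX1 had 112 reads in intestine, 1040 in P5 and 2613 in P10 organoids, 12.1 times (9.98 to 14.9) and 23.4 times (19.4 to 28.5) the level of intestine. CDX2 had 4 reads in intestine, 199 in P5 and 24 in P10 organoids, so P10 was at 0.0925 times P5 (0.0579 to 0.142). CDX1 thus had more reads at P10 than at P5, and CDX2 fewer. GSX1, GSX2, PDX1 and CDX4 had 2 reads or fewer in each library.

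Polycomb and trithorax proteins hold HOX genes in an off or an on state. All 25 listed genes of these complexes and their partners were detected in intestine and in both organoid libraries. In P5 organoids 7 were at least 2-fold higher and 4 lower than in intestine, and in P10 organoids 8 higher and 1 lower, beside 22.8% and 23.7% of all rows at P5 and 26.2% and 28.2% at P10. CBX2, a reader of the Polycomb mark, had 27 reads in intestine, 91 at P5 and 513 at P10, and PHC2 had 195, 313 and 2091. Their ratios to intestine at P10 were 19.1 (12.9 to 29.2) and 10.8 (9.28 to 12.5). EZH2, the enzyme that sets the mark, was 1.79 times (1.63 to 1.96) the intestine level at P5 and 2.55 times (2.35 to 2.77) at P10. WDR5, a core subunit of the activating KMT2 complexes, was 2.73 times (2.39 to 3.13) and 5.85 times (5.20 to 6.60). Of 7 comparable genes that flank HOXA, HOXB or HOXD, none was at least 2-fold higher than in intestine in either organoid library. No gene that flanks HOXC was among them, so the flanks of HOXC were not examined. SKAP1 and TTLL6, which flank HOXB, were at least 2-fold lower in both, TTLL6 on 11 reads in intestine, 1 at P5 and 0 at P10. These counts stand beside the shares of all rows just given. SNX11, also beside HOXB, was not lower, with ratios to intestine of 1.44 (1.07 to 1.96) at P5 and 1.05 (0.772 to 1.43) at P10. HIBADH, a neighbour of HOXA and an enzyme of valine breakdown, was 1.80 times the intestine level at P10 and 2.09 times (1.81 to 2.42) the level of P5 organoids. SKAP1, known from T cells, had 653 reads in intestine, 34 in P5 and 33 in P10 organoids. SKAP2 beside the HOXA cluster had 987, 841 and 1069, and MTX2 and LNPK on either side of HOXD had ratios to intestine between 0.572 and 1.25 in organoids.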

How the data were processed

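RNA of 4 bovine samples was sequenced with the QuantSeq 3′ mRNA-Seq kit. The authors aligned the reads with Bowtie2 and counted unique and multiple alignments per gene with the coverage command of Bedtools, and deposited the counts without normalisation. The genome build is not given in the sources used here, nor whether counting used strand. The methods name quantile normalisation with edgeR. CPM was used here instead, since quantile normalisation gave low counts unequal values, and quantile normalisation was an alternative.

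The rows of the 4 files were joined, and each row was treated as a gene. Ratios of CPM have exact conditional 95% intervals. PCR copies are not independent, so intervals cover counting error only. A ratio to a library with 0 reads is a lower bound computed with 3 reads in that library, and no ratio is given where both have 3 or fewer. Medians of ratios use at least 3 reads in each library. Every member with more than 3 reads in a library was to be named with its reads, with ratios for those with at least 20 reads in a library. From the other lists, genes were to be named if they had at least 20 reads in a library and were 2-fold or more apart between P5 organoids and intestine or between the passages. The other genes named from these lists, and the rows between members, were chosen after their values were seen. The members and lists were chosen with earlier results of these data known. Of 21 listed cluster neighbours 9 were found by symbol, none of them beside HOXC. Some genes of the lists are not reported here by name. The code was tested on simulated data. TMM and upper-quartile factors came from edgeR 4.0.16 in R 4.3.3, intervals from scipy 1.17.1, and tables and plots from Python 3.11.15 with pandas 2.3.3, numpy 2.4.6 and matplotlib 3.10.9. Overlaps and order of members came from the RefSeq table of ARS-UCD2.0, and no sequences or coordinates are printed.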

Additional observations from a re-analysis of the deposited data

Results flagged for a closer look

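HOXA4 was below intestine at P5 and above it at P10, with a CPM ratio to intestine of 0.706 (95% counting interval 0.549 to 0.904) in P5 organoids and of 1.39 (1.15 to 1.69) in P10 organoids. Both intervals leave out 1 on the CPM scale, but each passage has 1 library and the difference was not tested against variation between cultures. The P10 value also depends on the scaling. TMM factors were 1.11 for intestine and 1.31 for P10 organoids, which lowers the P10 ratio, and its interval would then include 1. HOXA4 lies inside HOXA3 in the RefSeq table, and HOXA3 had ratios of 1.02 and 1.98.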

How the results depend on the processing

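Each group has 1 library, so no library could be left out and counting intervals understate the error between cultures or animals. The HOXD, HOXB and HOXA9 counts of organoids were 18 reads or fewer, and their counting intervals are wide. Of 160 alternative values for counts and sums, 117 stayed within 1.5-fold of the count or within the counting interval of the sum, and 43 did not. The 83 ratios of members kept their direction wherever they were 2-fold apart, except that HOXA9 and HOXD8 in P10 organoids against intestine reversed with quantile normalisation (1.35 and 1.45). No count of detected members changed by more than 1.5-fold.

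With quantile normalisation, members at least 2-fold lower numbered 5 for P5 organoids against intestine and 2 for P10 against P5 organoids. With at least 10 reads, 4 members were higher and 0 lower in P10 than in P5 organoids, and 2 were lower where the counting interval had to leave out 1. For the other genes of the pathway, muscle had 1 gene higher than intestine in CPM, 2 without RN18S1, 4 with TMM, 5 with upper-quartile and 7 with quantile normalisation, and 25 genes lower in CPM but 13 with each of the last 3. TMM and upper-quartile normalisation, which rescale a whole library, moved the summed CPM of all members to 75.9 and 73.6 in intestine, 95.8 and 94.6 at P5, 153 and 147 at P10 and 360 and 390 in muscle. HOXA moved to 38.5 and 37.4 in intestine, 32.7 and 32.3 at P5, 66.2 and 63.7 at P10 and 319 and 346 in muscle. HOXC moved to 60.6 and 59.9 in P5 and 84.1 and 81.0 in P10 organoids, and with upper-quartile normalisation to 13 in intestine. HOXB moved to 21.0 and 20.4 in intestine and 3.66 and 3.98 in muscle, and HOXD to 36.2 and 39.3 in muscle. Totals without RN18S1 gave muscle 259 for all members, 229 for HOXA and 26.1 for HOXD, and P5 organoids 126 for all members.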
